A study of Mus musculus with 9 samples.

Results

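Ebf1 and Pax5 are the transcription factors that commit a progenitor to the B lineage, and the CTCF and cohesin sites around both genes are described here. Sites were taken as every peak of 5 deposited peak lists that touched the gene body of Ebf1 or Pax5, or the 200 kb on either side of it, in mouse genome build mm9 (NCBIM37). In total 165 of 190262 peaks qualified. Peaks that shared at least 1 bp across lists were joined, which left 80 of 83461 joined sites, 48 around Ebf1 and 32 around Pax5.

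The lists came from chromatin immunoprecipitation and sequencing (ChIP-seq) of CTCF and of Rad21, a subunit of the cohesin ring, in C57BL/6 mice of both sexes. There were 2 CTCF lists, from pre-B cells and from pro-B cells grown for 7 days with IL7. The 3 Rad21 lists were made from pre-B cells and from thymocytes at the double-negative (DN) and the later double-positive (DP) stage. All cells lacked Rag1 or, as the labels have it for the pre-B mice, RAG, so none could rearrange its own antigen receptor genes. The pre-B cells came from RAG-/- mice with a rearranged IgM transgene (RAG-/-µ+), the cultured pro-B cells from RAG1-/- mice, the DN cells from Rag1-/- mice, and the DP cells from Rag1-/- mice with a rearranged TCRb transgene. The bone marrow donors were 6 to 14 weeks old and the thymus donors 4 to 8 weeks old. The transgenes push every cell of a mouse to 1 stage, so the pre-B and DP samples stand for cells held at that stage without V(D)J recombination. Each list came from 1 library, so no comparison between cells has a replicate and no p-value is given. The files hold positions and scores and no expression, so the cell types could not be checked against their markers. CTCF in thymocytes and in uncultured pro-B cells was not analysed here. The lists differed in length, with 42250 CTCF peaks in pre-B cells, 71080 in the cultured pro-B cells, and 30488, 9701 and 36743 Rad21 peaks in pre-B, DN and DP cells. The read depth behind them is unknown. Because a score grows with depth, each peak was read by its rank, the percentage of peaks of the same list with a lower score.

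Ebf1 acts with E2A (Tcf3) to open and switch on B-lineage genes, Pax5 among them, and Pax5 then keeps the B-lineage programme going and holds down genes of other lineages. Ebf1 is known to use a distal and a proximal promoter, and Pax5 has an enhancer in its intron 5. CTCF binds a directional DNA motif, and cohesin travelling along chromatin is held up at CTCF, most often where paired motifs point towards each other, which is how many chromatin loops are anchored. Cohesin is also found at active enhancers and promoters without CTCF.

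Ebf1 (ENSMUSG00000057098.7) lies on the plus strand at chr11:44430819-44821593, a 391 kb gene with 16 exons in its main transcript. The protein-coding genes Ublcp1 and Rnf145 lie on its upstream side, and the downstream side held no other protein-coding gene within 200 kb. Pax5 (ENSMUSG00000014030.9) lies on the minus strand at chr4:44544017-44724318, a 180 kb gene with 10 exons. Zcchc7 lies on its upstream side and Melk on its downstream side, and the non-coding transcript Gm12462 overlaps part of its intron 5 and runs on into intron 3 on the other strand.

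Motifs within the CTCF peaks give a direction to some of the sites. The best match to the study's de novo CTCF consensus, a 12-base motif from HOMER, was searched on both strands with up to 2 mismatches. Matches are shown in capitals with 9 bases on either side, on the strand that reads in the direction in which the motif points. The 7 pre-B CTCF peaks with a directed match around Pax5 are given first, from low to high coordinates, because 6 of them point to higher coordinates, which is towards the start of Pax5.
Downstream of Pax5, chr4:44492813-44492842, to higher coordinates: cagttcttgCCACCAGGGGGCcccattgac
Pax5 intron 8, chr4:44569569-44569598, to higher coordinates: ttctcttgtCCACTAGGGGGAgccctgcaa
Pax5 intron 8, chr4:44577611-44577640, to higher coordinates: gactggcggCCACTAGAGGGCagcaaagag
Pax5 intron 7, chr4:44590340-44590369, to higher coordinates: ggagcatggCCGCCAGAGGGCagccttacc
Pax5 intron 5, chr4:44681220-44681249, to higher coordinates: ctgaactcaACACTAGGGGGAggtggtgac
Pax5 intron 5, chr4:44682547-44682576, to lower coordinates: cagcaccaaCCACCAGGTGGCaccattgac
Pax5 intron 5, chr4:44685543-44685572, to higher coordinates: ttgcaaccaACACCTGGGGGCactgttgtt

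The 5 directed matches around Ebf1 pointed both ways. Of these, 2 pointed to higher coordinates, which is the direction of Ebf1 transcription, and 3 to lower coordinates. The match at the 3′ end of Ebf1 lay 213 bp past the annotated end and pointed back into the gene.
Near Ublcp1, chr11:44267081-44267110, to lower coordinates: catctcccaCCAGTAGGTGGCactccaacc
Rnf145, chr11:44364682-44364711, to higher coordinates: ctttggaggCCAGCAGAGGGCttcggatcc
Ebf1 intron 6, chr11:44588101-44588130, to higher coordinates: ctcacttgaCCAGTAGGGGTCagaagacta
Past the 3′ end of Ebf1, chr11:44821797-44821826, to lower coordinates: tggctcatgCCAGCAGAGGGCagcagtacg
Downstream of Ebf1, chr11:44987229-44987258, to lower coordinates: ggccatctcCCAGCAGGGGGCagcaagcat

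The downstream Pax5 site matched the consensus with 0 mismatches. A match was present in 7 of 18 pre-B CTCF peaks around Pax5 (38.9%, exact Clopper-Pearson 95% interval 17.3 to 64.3) and in 6 of 18 around Ebf1 (33.3%, 13.3 to 59.0), and the latter include 1 whose best matches tied on opposite strands. Genome-wide the share was 48.3% of pre-B CTCF peaks, against 8.97% in sequence of the same length 2 kb away, and both intervals hold the genome-wide share. The intervals cover counting error only. They take neighbouring peaks of 1 locus as independent and do not measure the spread between libraries.

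Rad21 around Pax5 was called in pre-B cells and hardly at all in thymocytes. The Pax5 window held 19 Rad21 peaks in pre-B cells, 0 in DN cells and 1 in DP cells. At the average density of each list, a window of this size would hold 6.70, 2.13 and 8.08. The DN count of 0 allows up to 0.0309% of that list, taken as 3 peaks, and up to 0.0380% by the exact Clopper-Pearson interval. CTCF peaks numbered 18 in pre-B cells and 29 in cultured pro-B cells, against 9.29 and 15.6 at the list averages. Gene windows hold more peaks than the list average in general, and by peaks per Mb 52.9% and 52.3% of 22350 gene windows had fewer CTCF peaks than that of Pax5. For Rad21 in pre-B, DN and DP cells 72.1%, 0% and 11.5% had fewer. The DN value is fixed, since no window can hold fewer than 0 peaks. Inside the Pax5 gene body there were 12 and 14 CTCF peaks, against 2.89 and 4.86 at the list averages, and 10 pre-B Rad21 peaks, against 2.08. Both thymocyte lists had 0 Rad21 peaks there, where the averages are 0.663 in DN and 2.51 in DP cells, so the DN count alone says little.

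**Figure D1:**
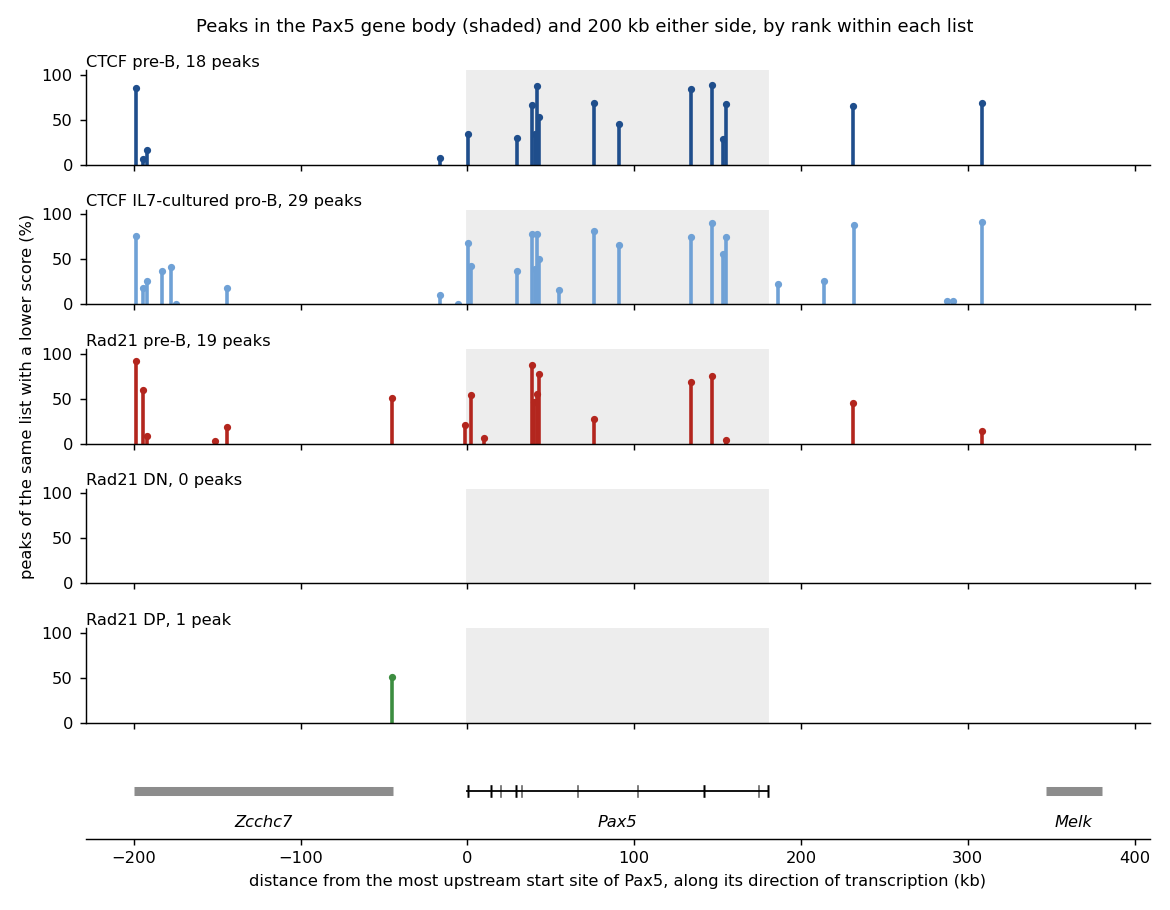
Each stick is a peak, placed by its distance in kb from the most upstream Pax5 start site along the direction of transcription (x axis) and by the percentage of peaks of its own list with a lower score (y axis), in 1 panel for each of the 5 lists. The gene body is shaded and carries CTCF and pre-B Rad21 sticks, unevenly spread, while the DN panel is empty and the DP panel has 1 stick, at the start of Zcchc7.

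The Ebf1 window differed from this. It held 24 pre-B, 6 DN and 18 DP Rad21 peaks, against 9.14, 2.91 and 11.0 at the list averages, and 18 pre-B and 32 pro-B CTCF peaks, against 12.7 and 21.3. Among gene windows, however, the CTCF densities of 22.8 and 40.5 peaks per Mb were below the medians of 29.1 and 47.7. By Rad21 peaks per Mb, 68.6%, 62.2% and 49.7% of gene windows had fewer than that of Ebf1 in pre-B, DN and DP cells. The gene body held 4 pre-B and 12 pro-B CTCF peaks, against 6.26 and 10.5 at the list averages, and 7, 2 and 4 Rad21 peaks in pre-B, DN and DP cells, against 4.51, 1.44 and 5.44. In the upstream flank, next to Ublcp1, Rnf145 and the Ebf1 start, lay 14 of the 24 pre-B and 14 of the 18 DP Rad21 peaks.

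**Figure D2:**
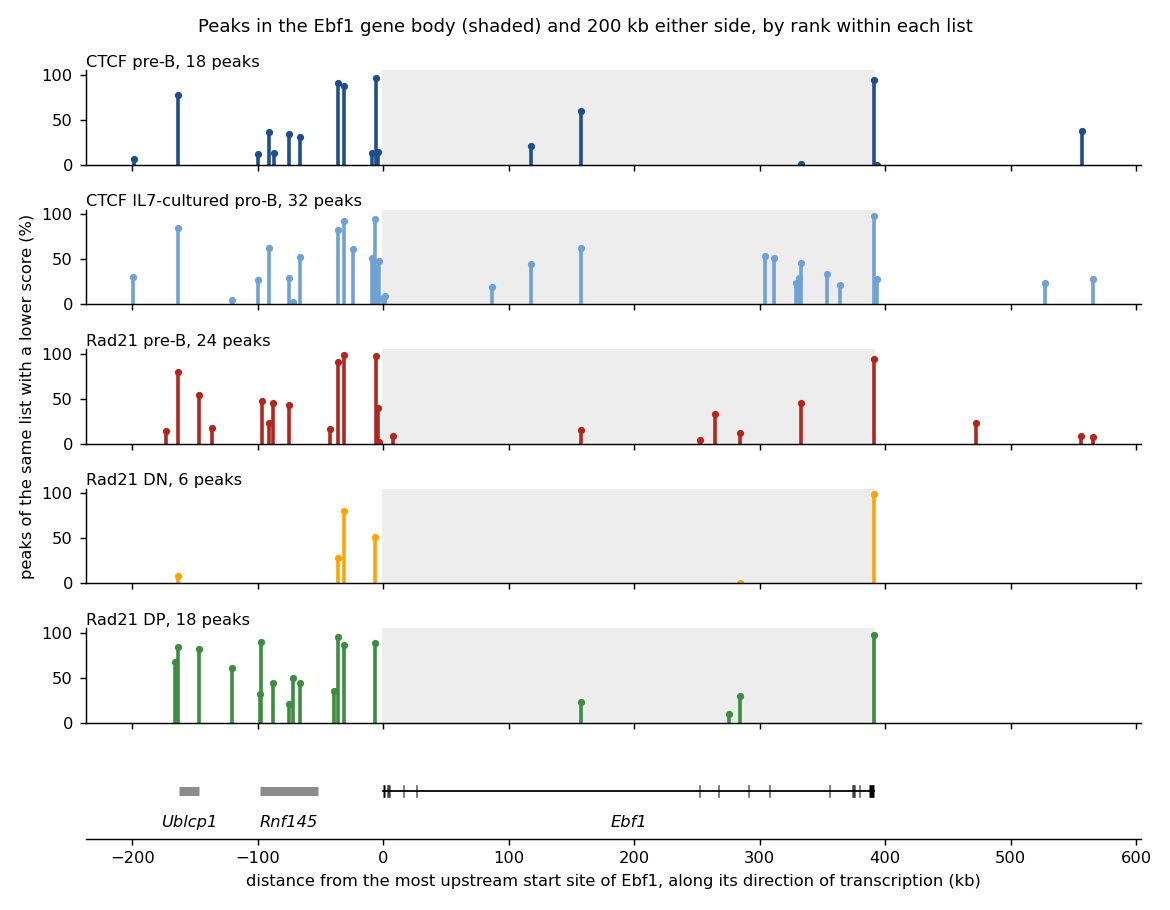
Peaks of the 5 lists around Ebf1, drawn with distance in kb from its most upstream start site on the x axis and the percentage of peaks of the same list with a lower score on the y axis. The 5 places with a stick in every panel lie upstream of the gene and at its 3′ end, and the introns hold sticks of at most 62.7%.

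Joining the 3 Rad21 lists gave 46478 sites genome-wide, of which 20.6% were called in pre-B cells only and 34.8% in thymocytes only. Around Pax5, 18 of 19 joined Rad21 sites were called in pre-B cells only (94.7%, 95% interval 74.0 to 99.9), 0 in thymocytes only and 1 in both. Within the Pax5 gene body it was 10 of 10. Around Ebf1, 14 of 32 were called in pre-B cells only (43.8%, 26.4 to 62.3), 8 in thymocytes only (25.0%) and 10 in both (31.2%). The intervals of the Ebf1 and Pax5 shares do not overlap, and both lie above the genome-wide share. The intervals take neighbouring sites of 1 locus as independent draws, so this is no test between the genes or against the genome.

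**Figure D3:**
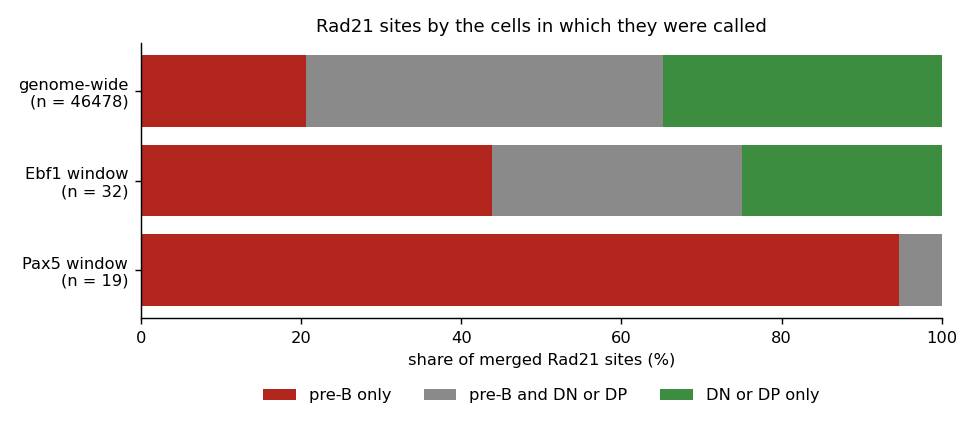
Stacked bars give the share of joined Rad21 sites (%) called in pre-B cells only, in pre-B and at least 1 thymocyte stage, or in thymocytes only, for all 46478 sites, the 32 of the Ebf1 window and the 19 of the Pax5 window. The pre-B share rises from 20.6% genome-wide to 43.8% around Ebf1 and 94.7% around Pax5.

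The Pax5 share did not rest on weak peaks. Genome-wide, a pre-B Rad21 peak without a thymocyte partner was more often a weak one. Of peaks with ranks of 0 to 25%, 25 to 50%, 50 to 75% and 75 to 100% in the pre-B list, 59.6%, 42.4%, 19.5% and 4.24% had no overlapping DN or DP peak. In the same order of ranks, 7 of 7, 3 of 3, 4 of 5 and 4 of 4 Pax5 peaks had none. For Ebf1 it was 11 of 12, 3 of 6, 0 of 1 and 0 of 5. Limiting each Rad21 list to its 9701 strongest peaks, the length of the DN list, gave 5 of 5 Pax5 sites and 0 of 8 Ebf1 sites in pre-B cells only, with 14.8% genome-wide. With scores of at least 100 the Ebf1 share was 4 of 17 (23.5%), close to the 22.3% genome-wide. The Ebf1 sites found only in pre-B cells thus lay in the lower part of the list, and the Ebf1 share depended on how deep the lists were read. Without the short DN list, and with 30488 peaks in each of the others, the shares were 94.7% around Pax5, 45.2% around Ebf1 and 27.8% genome-wide.

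Over all 5 lists, a site was taken as B-lineage only when a pre-B or pro-B list called it and neither thymocyte list did. This held for 56.1% of all joined sites, for 31 of 32 around Pax5 (96.9%, 83.8 to 99.9) and for 30 of 48 around Ebf1 (62.5%, 47.4 to 76.0), the latter near the genome-wide share. A CTCF site without Rad21 falls in this class by its construction, because thymocyte CTCF was not analysed here. The combination of CTCF in both B-lineage lists and Rad21 in pre-B cells, with no thymocyte peak, made up 12 of 32 Pax5 sites (37.5%, 21.1 to 56.3), 3 of 48 Ebf1 sites (6.25%, 1.31 to 17.2) and 8.35% of all sites. Sites called in all 5 lists made up 10.3% of all sites, 5 of 48 around Ebf1 and 0 of 32 around Pax5.

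Within 2 kb of its start sites, Pax5 carried both proteins in B-lineage cells and Ebf1 carried only weak CTCF. A peak within 2 kb of a start site was found for 30.0% of 22342 protein-coding genes with pre-B CTCF, 43.2% with pro-B CTCF, 22.7% with pre-B Rad21, 5.35% with DN Rad21 and 34.5% with DP Rad21. At Pax5, CTCF lay at the most upstream start site, in the site chr4:44723658-44724426. The pro-B peak, at rank 68.2%, covered that start, and the pre-B peak, at 34.6%, ended just inside the gene from it. Rad21 was not called in that peak but on both sides of it, in pre-B cells only. The site inside the gene, chr4:44721850-44722578, had Rad21 at 54.2% and a pro-B CTCF peak at 42.5%. The site upstream, chr4:44725725-44726307, had Rad21 alone at 21.5%. At the Ebf1 start sites there were 2 CTCF peaks, chr11:44430331-44430812 and chr11:44431633-44432022, both in cultured pro-B cells only and at ranks of 7.43% and 9.14%. No Rad21 peak of any of the 3 lists lay within 2 kb of an Ebf1 start site. With 5 kb in place of 2 kb, Ebf1 had 1 pre-B CTCF, 4 pro-B CTCF and 2 pre-B Rad21 peaks. A further RefSeq start of Ebf1, placed at 44433730 by its sequence, had no peak of the 5 lists in the 300 bp around it.

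Intron 5 of Pax5, the 33.7 kb intron that holds the known enhancer, held the most sites of any Pax5 intron. It held 4 of the 14 gene-body sites, and 3 of them lay within 6 kb of each other with CTCF in both B-lineage lists and Rad21 in pre-B cells. The site at chr4:44680799-44681852 ranked at 53.2% and 50.8% for CTCF in pre-B and pro-B cells and at 77.9% for Rad21. The site at chr4:44682111-44683069 ranked at 87.2% and 77.7% for CTCF and 55.8% for Rad21. The site at chr4:44683770-44686335, which is 2566 bp wide and holds more than 1 peak of a list, ranked at 66.4% and 78.0% for CTCF and 87.3% for Rad21. Rad21 was therefore highest at one site and CTCF in pre-B cells at its neighbour. The fourth site, chr4:44669204-44669570, held only a pro-B CTCF peak, at 16.2%. The matches listed above for the first and the second of these sites point towards each other, and that of the third points away from the second. Because the second match is the only one in the pre-B CTCF peaks around Pax5 that points to lower coordinates, its 120-base surrounding at chr4:44682502-44682621 is shown on the minus strand with the match in capitals.
Pax5 intron 5: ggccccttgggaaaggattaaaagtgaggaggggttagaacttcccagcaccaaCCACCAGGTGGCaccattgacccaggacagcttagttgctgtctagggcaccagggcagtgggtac

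Further towards the 3′ end, introns 6, 7 and 8 of Pax5 held 6 more sites, all with CTCF in both B-lineage lists. The strongest pre-B CTCF peak of the window lay in intron 8, in the site chr4:44577208-44578068, at 88.2% in pre-B and 90.8% in pro-B cells, with Rad21 at 75.6%. In intron 7 the site chr4:44589769-44590756 ranked at 84.3% and 74.3% for CTCF and 69.0% for Rad21. Rad21 was weaker or not called at the other 4. It ranked at 4.81% at chr4:44569190-44569823 in intron 8, where CTCF ranked at 67.1% and 74.6%, and at 27.5% at chr4:44648325-44648946 in intron 6, where CTCF ranked at 68.2% and 81.5%. At chr4:44570577-44571102 in intron 8 and chr4:44633029-44633709 in intron 6, CTCF was called without Rad21, at 28.2% and 45.2% in pre-B cells. Nearer the promoter, chr4:44694263-44694777 in intron 4 had CTCF alone, at 29.5% and 36.9%, and chr4:44714380-44714854 in intron 1 had Rad21 alone, at 6.50%. The intron 8 site with the strongest CTCF is shown at chr4:44577566-44577685 on the plus strand.
Pax5 intron 8: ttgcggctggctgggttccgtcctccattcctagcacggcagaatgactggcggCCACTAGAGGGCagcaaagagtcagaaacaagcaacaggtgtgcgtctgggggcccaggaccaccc

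The Ebf1 introns held a different mixture. Of the 18 gene-body sites, 8 were CTCF peaks called in cultured pro-B cells only (44.4%, 21.5 to 69.2), against 30.1% of all sites, and 4 were Rad21 peaks of pre-B cells with no CTCF (22.2%, 6.41 to 47.6), against 1.68% of all sites. The 226 kb intron 6 held 3 sites. Of these, chr11:44587758-44588450 had CTCF at 59.4% and 62.7% in pre-B and pro-B cells with weak Rad21 in pre-B (15.7%) and DP cells (23.7%). The second, chr11:44547987-44548499, had CTCF alone at 21.2% and 44.4%, and the third, chr11:44517430-44517794, pro-B CTCF alone at 18.9%. Intron 10 held 5 sites, 4 of them pro-B CTCF only at ranks of 24.2 to 50.9%. The other, chr11:44763622-44764443, was the only Ebf1 intronic site with CTCF of both lists and Rad21 in pre-B cells but not in thymocytes, and ranked at 0.947%, 45.7% and 44.9%. In introns 9 and 11 there was 1 pro-B CTCF peak each, at 54.1% and 21.7%.

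Rad21 was called without a B-lineage CTCF peak in introns 4, 7 and 8 of Ebf1, and CTCF in thymocytes was not analysed here. In pre-B cells only, chr11:44438023-44438460 in intron 4 ranked at 8.66%, and chr11:44682800-44683278 and chr11:44694438-44695122 in intron 7 at 3.79% and 32.9%. Intron 8 held Rad21 of both lineages at separate places. Thymocyte Rad21 lay at chr11:44706360-44706891 (10.4% in DP) and at chr11:44714616-44715062 (0.186% in DN, 29.5% in DP), and pre-B Rad21 just beyond at chr11:44715209-44715714 (11.6%). These were all weak to middling peaks of their lists.

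The 5 sites called in all 5 lists flanked the Ebf1 gene body or lay at its end, and all 5 ranked above 75% for CTCF in both lists. Upstream, chr11:44424118-44425539 lay 5.28 kb before the gene body and ranked at 96.2% and 94.9% for CTCF and at 98.0%, 51.3% and 88.5% for Rad21 in pre-B, DN and DP cells. Further out, chr11:44399299-44399997 ranked at 87.1% and 92.6% for CTCF and 98.4%, 80.1% and 85.9% for Rad21. The third, chr11:44394280-44395330, ranked at 90.6% and 82.1% for CTCF, and its Rad21 ranked at 90.4% in pre-B and 27.7% in DN cells and within the top 25% of the DP list. The next, chr11:44266585-44267591, lay 482 bp from Ublcp1 and ranked at 77.6% and 84.7%, and 79.8%, 8.67% and 83.9%. At the other end of the gene, chr11:44821213-44822075 overlapped exon 16 and ran past the annotated 3′ end, at 94.3% and 97.8% for CTCF and 93.9%, 99.5% and 97.9% for Rad21. The body of Ebf1 thus lay between a strong shared site before its start and another at its end. For the site at the end, the only one of this pair with a match to the consensus, the surrounding at chr11:44821752-44821871, past the annotated transcript, is shown on the minus strand.
Past the 3′ end of Ebf1: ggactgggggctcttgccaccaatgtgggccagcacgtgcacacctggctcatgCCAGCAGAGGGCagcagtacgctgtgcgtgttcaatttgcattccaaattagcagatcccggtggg

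High DP Rad21 ranks were also found without CTCF or DN Rad21, at 89.6% in chr11:44332958-44334502 just inside Rnf145 and at 82.2% in chr11:44283076-44284976 at the start of Ublcp1. Their pre-B Rad21 ranked at 47.5% and 54.1%. Next to the upstream site, chr11:44425572-44427508 had CTCF at 14.5% and 48.4% and pre-B Rad21 at 39.3% with no thymocyte peak. Beyond the 3′ end the Ebf1 window changed character. The flank of 200 kb there held 3 pre-B Rad21 peaks, at chr11:44902747-44903652 (23.0%), chr11:44986860-44987480 (9.17%) and chr11:44995922-44996451 (7.87%), and no thymocyte Rad21. The next DN or DP Rad21 peak, and the next site of all 5 lists, lay 744 kb from the end of the gene.

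The flanks of Pax5 held 1 site with thymocyte Rad21, chr4:44769295-44770350 at the start of Zcchc7, a gene for a zinc-finger protein. It ranked at 50.7% in pre-B and 51.3% in DP cells and had no CTCF peak in the B-lineage lists. The strongest Rad21 peak of the window lay inside Zcchc7 at chr4:44922939-44923565, with Rad21 at 92.2%, CTCF at 85.1% and 76.1%, and no thymocyte peak. It lies close to the edge of the window, and with flanks of 100 kb it is not counted. On the downstream side, chr4:44492561-44493182 ranked at 65.4% and 88.3% for CTCF and 45.7% for Rad21, and chr4:44415278-44416148, beyond which lies Melk, at 69.0% and 91.4% for CTCF, the highest pro-B rank of the window, and 14.8% for Rad21. The nearest sites called in all 5 lists lay 357 kb below and 262 kb above the gene body, outside the window.

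Between the neighbouring thymocyte Rad21 peaks on either side of Pax5, a stretch of 463 kb (chr4:44305846-44769294) held 15 pre-B Rad21 peaks, 17 pre-B CTCF peaks and 26 pro-B CTCF peaks. Of 37225 such stretches between thymocyte Rad21 peaks in the genome, 6 held 15 or more pre-B Rad21 peaks, that of Pax5 included. Only 930 stretches, that of Pax5 included, were at least as long as it, and shorter ones have less room for peaks. The stretch that opens at the 3′ end of Ebf1, chr11:44822076-45565560, was another of the 6, with 17 pre-B Rad21 peaks over 743 kb, 3 of them within the window, a highest rank of 99.7%, and 0 annotated protein-coding genes. The longest lists of pre-B peaks, 34 and 29, were in 2 stretches of chromosome 6 that hold Igκ V genes.

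Rad21 without pre-B CTCF was present in both windows. Of all pre-B Rad21 peaks 88.1% overlapped a pre-B CTCF peak, against 13 of 19 around Pax5 (68.4%, 43.4 to 87.4) and 12 of 24 around Ebf1 (29.1 to 70.9%). Both intervals end below the genome-wide share, that of Pax5 only just, and they take neighbouring peaks as independent. The pre-B CTCF and Rad21 lists were called against the same input library, so these overlaps share their control. The Rad21 peaks without CTCF had median ranks of 19.9% around Pax5 (6 peaks) and 17.4% around Ebf1 (12 peaks), and those with CTCF 55.8% and 43.9%. Genome-wide the medians were 15.7% and 55.6%. All 13 Pax5 Rad21 peaks with CTCF lacked a thymocyte peak, against 28.0% genome-wide and 5 of 12 around Ebf1. Of the Rad21 peaks without pre-B CTCF, 2 of 6 around Pax5 and 1 of 12 around Ebf1 overlapped a pro-B CTCF peak. Genome-wide 1305 of 3628 did.

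In the other direction, 63.5% of pre-B CTCF peaks overlapped pre-B Rad21, and 13 of 18 around Pax5 and 11 of 18 around Ebf1 did, both near that share. The overlap of the full B-lineage CTCF lists was near the genome-wide shares. Of all pre-B CTCF peaks 96.0% had a pro-B CTCF peak, and 18 of 18 around Pax5 and 16 of 18 around Ebf1 did. With both CTCF lists limited to equal length it was 13 of 18 and 12 of 18. No genome-wide share at that length is given here, so a general fall cannot be told from one in these windows. Of all pro-B CTCF peaks 58.6% had a pre-B peak, and 18 of 29 and 17 of 32 did. The longer pro-B list holds more weak peaks, and whether the additional pro-B peaks come from a deeper list was not tested. The highest of them lay around Ebf1, at chr11:44406597-44406931 upstream (61.4%), in intron 9 (54.1%) and in intron 10 (50.9%). These stood at places 27415, 32611 and 34902, within the 42250 of the pre-B list length. The other additional peaks of both windows ranked at 42.5% or lower.

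Set beside other genes, the Pax5 window lay at the far end. Among 13950 gene windows with 10 or more joined Rad21 sites the median share called in pre-B cells only was 16.7%, and 2 other windows, those of Gm10360 and Gm7157 with 10 of 10 sites each, reached or passed the Pax5 share. Gm10360 lies among the Igκ V genes on chromosome 6. The Ebf1 share was above that of 93.3% of the windows. Windows of neighbouring genes overlap and share sites.

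**Figure D4:**
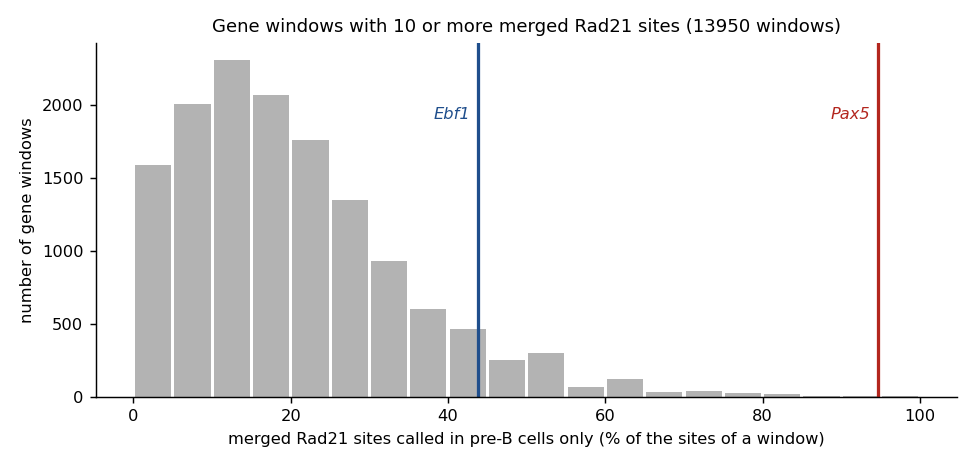
The histogram gives the number of gene windows (y axis) by the share of their joined Rad21 sites called in pre-B cells only (x axis, %), over 13950 windows with 10 or more sites. Lines mark Ebf1 at 43.8% and Pax5 at 94.7%, the latter where almost no windows are left.

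Other genes of the early B-lineage network did not share the Pax5 pattern as a group. Over 18 such genes the median share called in pre-B cells only was 20.9%, and 7 of the 18 had more sites called in pre-B cells only than in thymocytes only, 9 had fewer and 2 had as many. Over all 13950 windows it was 3953, 9109 and 888. The highest of the 18 were Il7r, the receptor for IL7, with 5 of 8, Bcl11a, a zinc-finger factor of early B cells, with 12 of 20, Irf4, a factor of B-cell activation and light-chain rearrangement, with 16 of 37, and Blk, a kinase of the B-cell receptor pathway, with 4 of 10. Among genes for parts of the B-cell receptor, its surrogate or its signalling, the counts were 7 of 24 at Cd79a, 5 of 32 at Cd79b, 5 of 23 at Blnk, 2 of 10 at Vpreb1 and 1 of 9 at Igll1. Among other factors of early B cells the counts ranged from 10 of 37 at Tcf3, 9 of 37 at Irf8 and 5 of 22 at Spi1 to 3 of 28 at Foxo1 and 3 of 41 at Ikzf3. Rag1, a subunit of the recombinase and the gene deleted in the Rag1-/- mice, had 5 of 36. Ikzf1, Runx1 and Lef1, transcription factors used in both lineages, had 2 of 41, 3 of 44 and 3 of 43, and 30, 28 and 33 of their sites were called in thymocytes only.

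At 5 of 6 factors of the T lineage more sites were called in thymocytes only than in pre-B cells only, as at 9109 of all 13950 windows. Gata3 had 0 of 18 sites in pre-B cells only and 15 in thymocytes only, Bcl11b 0 of 47 and 44, and Tcf7 1 of 56 and 39. Tox had 0 of 15 and 9. At Notch1 the counts were close, 5 of 31 and 8, and at Runx3 the order was turned, 9 of 25 and 6. The median share in pre-B cells only over the 6 was 0.893%.

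**Figure D5:**
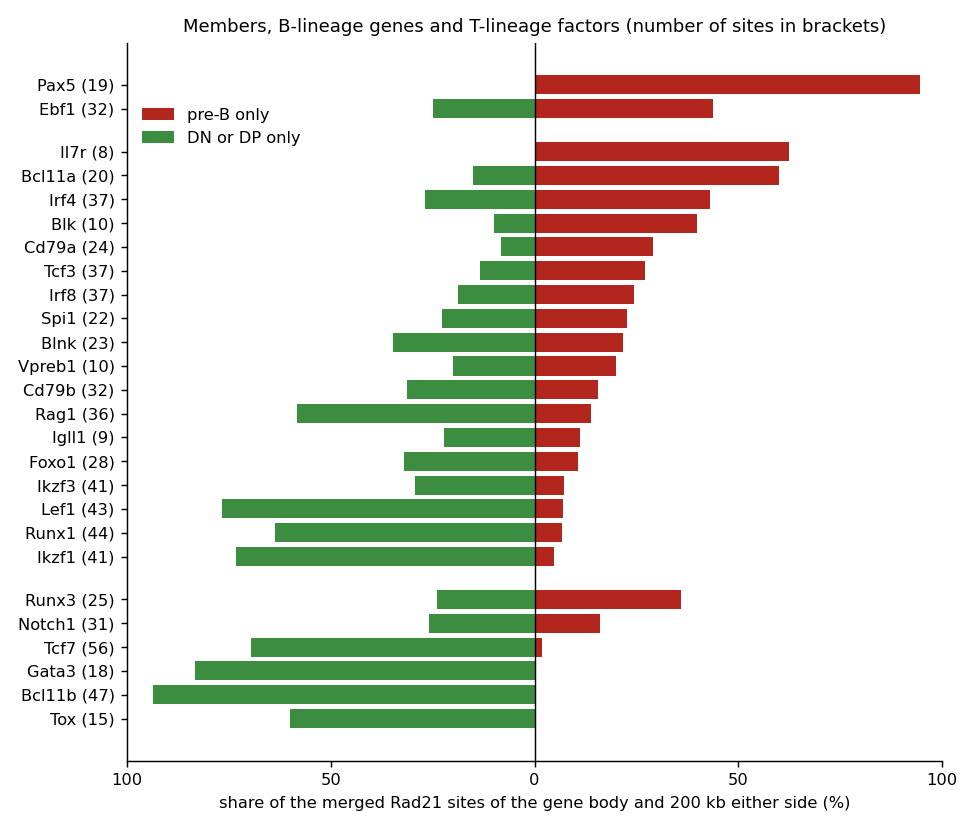
Bars to the right give the share of joined Rad21 sites called in pre-B cells only and bars to the left the share called in DN or DP cells only (x axis, % of the sites of the gene body and 200 kb either side), for Pax5 and Ebf1, 18 B-lineage genes and 6 T-lineage factors. Pax5 reaches 94.7% on the right with no bar on the left, and Bcl11b reaches 93.6% on the left with no bar on the right.

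By peaks per 100 kb of gene body in the 5 lists, over 4837 protein-coding genes of at least 50 kb, the genes most like Ebf1 were Strbp, Cnksr3 and Ppp3ca, with summed differences of 1.09, 1.12 and 1.24 peaks per 100 kb. Those most like Pax5 were Phf21b, C330046G03Rik and Ifih1, at 1.22, 1.44 and 1.83. Pax5 itself had 6.66 and 7.76 CTCF peaks per 100 kb in pre-B and pro-B cells, 5.55 Rad21 peaks in pre-B cells and 0 in both thymocyte lists, and Phf21b had 7.07, 7.07, 5.65, 0 and 0.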

How the data were processed

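The deposited files used are 5 peak lists, made by the authors with MACS from Bowtie alignments to mm9 (versions 1.4.2 and 0.12.9 per the processing notes in the labels, though the study's methods give another Bowtie version). Reads that mapped to a few places were kept, peaks were called per library against an input, and a false-discovery limit was applied. The value beside each peak is the score that the authors deposited, and it was ranked within a list, except in the alternative with 1 score limit for all lists. Sequences and genes came from NCBIM37 and GENCODE M1, which share the files' build.

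Peaks were joined by 1 bp of overlap on chromosomes 1 to 19 and X, and placed as promoter (within 2 kb of a coding start site), exon, intron or flank. Shares carry exact Clopper-Pearson 95% intervals. Python 3.11.15, numpy 2.4.6 and scipy 1.17.1 were used, and joining, overlap and motif search were tested on simulated data. Named were both genes, coding neighbours, the genes of the B- and T-lineage lists (1 B-lineage gene is not reported here), promoter and gene-body sites, the top site of each list in each window, the nearest site on each side called in all 5 lists, and the 3 genes most alike. Other sites and Gm10360, Gm7157 and the Igκ stretches were named after their values were seen, as were the rank ranges, the stretches and the window minimum of 10 sites. The genes and lists were chosen with earlier results of these data known. Alternatives changed score limit, list length, flank, overlap, promoter width and mismatches. Spi1 was matched by its older symbol Sfpi1.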

Additional observations from a re-analysis of the deposited data

How the results depend on the processing

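No paired analysis was possible because each list is 1 library with no replicate. Of 84 values recomputed under alternatives, 59 moved by less than their counting interval (counts by 1.5 times at most) and 25 moved further. With scores of at least 100, Ebf1 held 11 pre-B CTCF and 12 pre-B Rad21 peaks, Pax5 held 12 pre-B Rad21 peaks, and the Ebf1 pre-B-only share was 23.5%. With lists of equal length, CTCF peaks in pre-B and pro-B cells fell to 5 and 3 around Ebf1 and 4 and 3 around Pax5, pre-B Rad21 to 5 and 5, and DP Rad21 to 7 and 0, and the pre-B-only shares were 0% around Ebf1, now below the 14.8% genome-wide, and 100% around Pax5. The order of pre-B and DP Rad21 counts around Ebf1, and of pro-B and pre-B CTCF counts around both genes, turned with it. With both pre-B lists of equal length 90.0% of Ebf1 CTCF peaks had Rad21, and with both CTCF lists of equal length 72.2% of Pax5 pre-B CTCF peaks had a pro-B peak. Genome-wide shares of these overlaps at equal length are not given here, so neither value can be set against a background. Flanks of 100 kb left 19 pro-B CTCF peaks around Pax5. With 1 mismatch the consensus was found in 5.56% of Ebf1 CTCF peaks, against 16.1% of all pre-B CTCF peaks. The Pax5 share with 1 mismatch was 22.2% and stayed within its interval. With 3 mismatches it was found in 83.3% around Ebf1 and 88.9% around Pax5, against 91.2% of all pre-B CTCF peaks. The exact intervals of these Ebf1 and Pax5 shares hold the share of all peaks. With 3 mismatches the sequence 2 kb away also matched, in 21134 of 42249 cases. Promoters of 5 kb gave Ebf1 1 pre-B CTCF, 4 pro-B CTCF and 2 pre-B Rad21 peaks, and promoters of 1 kb gave Pax5 1 pro-B CTCF and 1 pre-B Rad21 peak. The alternative without the DN list, chosen after seeing the data, left both pre-B-only shares within their intervals. Read depth and antibody yield are not known here, and their part in the calls and in list length was not tested.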

Other observations

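Short motifs of other factors were counted in the central 300 bp of the pre-B Rad21 peaks, on both strands, a choice made after seeing the data. The EBF core CCCNNGGG was in 4 of 19 Pax5 peaks (21.1%, exact 95% interval 6.05 to 45.6) and 2 of 24 Ebf1 peaks (8.33%), against 9.59% of all pre-B Rad21 peaks. The E-box CAGNTG of E proteins was in 15 of 19 and 18 of 24, against 62.7%. The PU.1 core GAGGAAGT was in 0 of 19 and 0 of 24, against 2.96%. The intervals of all 6 shares hold the genome-wide share. Of pre-B Rad21 peaks without pre-B CTCF, 15.5% held the EBF core genome-wide, and 2 of 6 around Pax5 and 2 of 12 around Ebf1 did. Phf21b, Ifih1 and C330046G03Rik, the genes closest to Pax5 by peaks per list, have no place in the B-lineage list, and C330046G03Rik lies in another of the 6 stretches with 15 or more pre-B Rad21 peaks and no thymocyte Rad21.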
